A study of Mus musculus with 283 samples.

Results

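T11-Apobec is a transplantable mouse mammary tumour named as a derivative of T11, a mesenchymal line of the claudin-low type. The 8 tumours described here are the T11-Apobec tumours whose labels give 7 day as the time, and they are 8 of the 283 samples of the series and of the 264 libraries of its tumour expression table. Of these, 4 came from mice labelled with the therapy Pd1.CTLA4, antibodies to the T cell receptors PD-1 and CTLA-4, and 4 came from mice labelled with no therapy. All 8 carried the same tumour line, implanted orthotopically in syngeneic hosts, and mice were assigned at random to an arm once the tumour reached 5 mm across. Anti-CTLA4 was given at 125 ug and anti-PD1 at 10 mg/kg, each in 100 ul into the peritoneum and on the schedule the labels call bi-weekly. No control antibody is named for the untreated arm, and the host strain, sex and age are not stated in the labels. The labels class T11-Apobec as sensitive, a class it shares with T11-UV, while parental T11 is classed as resistant. Each library has its own mouse number, so the arms are not paired.

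PD-1 and CTLA-4 hold back T cells that have met their antigen, PD-1 mainly in the tissue and CTLA-4 mainly when T cells are first primed. Blocking both lets T cells divide, make interferon gamma and release granzymes onto the cells they recognise. Interferon gamma in turn acts on tumour cells and macrophages, where it raises antigen presentation, nitric oxide synthase and the PD-1 ligands. The Apobec proteins in the tumour's name are cytidine deaminases that edit cytosine in single-stranded DNA. The values given are gene-level signals that the authors scaled to 1 common upper quartile, compared on the log2(signal + 1) scale, and a log2 difference is therapy minus untreated with its standard error after the ± sign. A signal is not divided by transcript length, so levels are compared between tumours and never between genes.

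Estimated depth was 36.5 to 67.5 M reads (median 59.3 M), with 19988 to 22406 genes above 0 per library. Therapy replicate 1 was the shallowest library, had the fewest genes above 0, and carried 10.7% of its signal in its top 10 genes. On the first principal component of the 8 libraries, which held 63.5% of the variance, the therapy libraries lay at -163.9, -9.35, -54.3 and -83.9 and the untreated ones between 70.5 and 82.3. Correlations across genes ran from 0.947 to 0.986 between therapy libraries and from 0.989 to 0.993 between untreated libraries. Vim, a mesenchymal marker, had a median signal of 191200 in therapy tumours and 206900 in untreated tumours. Epithelial markers were low and uneven. The median signal of Epcam was 58.9 in therapy tumours and 9.16 in untreated tumours (limma adjusted p = 0.115), that of Krt8 was 117.9 and 260.5 (adjusted p = 0.232), and that of Krt18 was 177.2 and 380.3 (adjusted p = 0.125). Per the file headers all 8 were sequenced on 1 flow cell, the therapy libraries on lane 4 and the untreated ones on lane 6, so lane and therapy cannot be told apart. Nothing says that the libraries of an arm came from more than 1 experiment, so p-values measure spread between tumours, not between experiments. That spread is 1 value per gene, pooled within the 47 groups fitted, and not the spread of these 8 tumours alone.

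Apobec3, the cytidine deaminase that the source names give to the line, had 3443, 3600.4, 2589.9 and 3885 in therapy tumours, against 3136, 2788, 2573 and 2967 in untreated tumours, a log2 difference of 0.23 ± 0.22 (limma adjusted p = 0.475). The arms overlapped. Its level in parental T11 tumours of the same day was 2654, 2574, 2714 and 2558 with therapy and 2658, 2208, 2573 and 2592 without therapy. At 7 days the untreated tumours of T11-Apobec and T11 overlapped. T11-Apobec tumours labelled 3 day, on another flow cell, had 4908.5 to 5449.9 with therapy and 4028.7 to 4874.9 without therapy.

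Many genes differed between the arms, in both directions. Of 20848 genes tested with limma across all groups of the tumour table, 2829 rose (13.6%) and 3246 fell (15.6%) at a Benjamini-Hochberg adjusted p under 0.05. More than 2-fold changes made up 1659 of the rises and 1905 of the falls. In 4616 genes (22.1%) every therapy tumour lay above every untreated tumour, and in 4757 (22.8%) every one lay below. Without therapy replicate 1, 1425 genes rose and 1171 fell, of which 1421 and 1170 were among the first set, and all 6075 genes kept their sign. The 59 gene lists below are read against these shares.

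**Figure D1:**
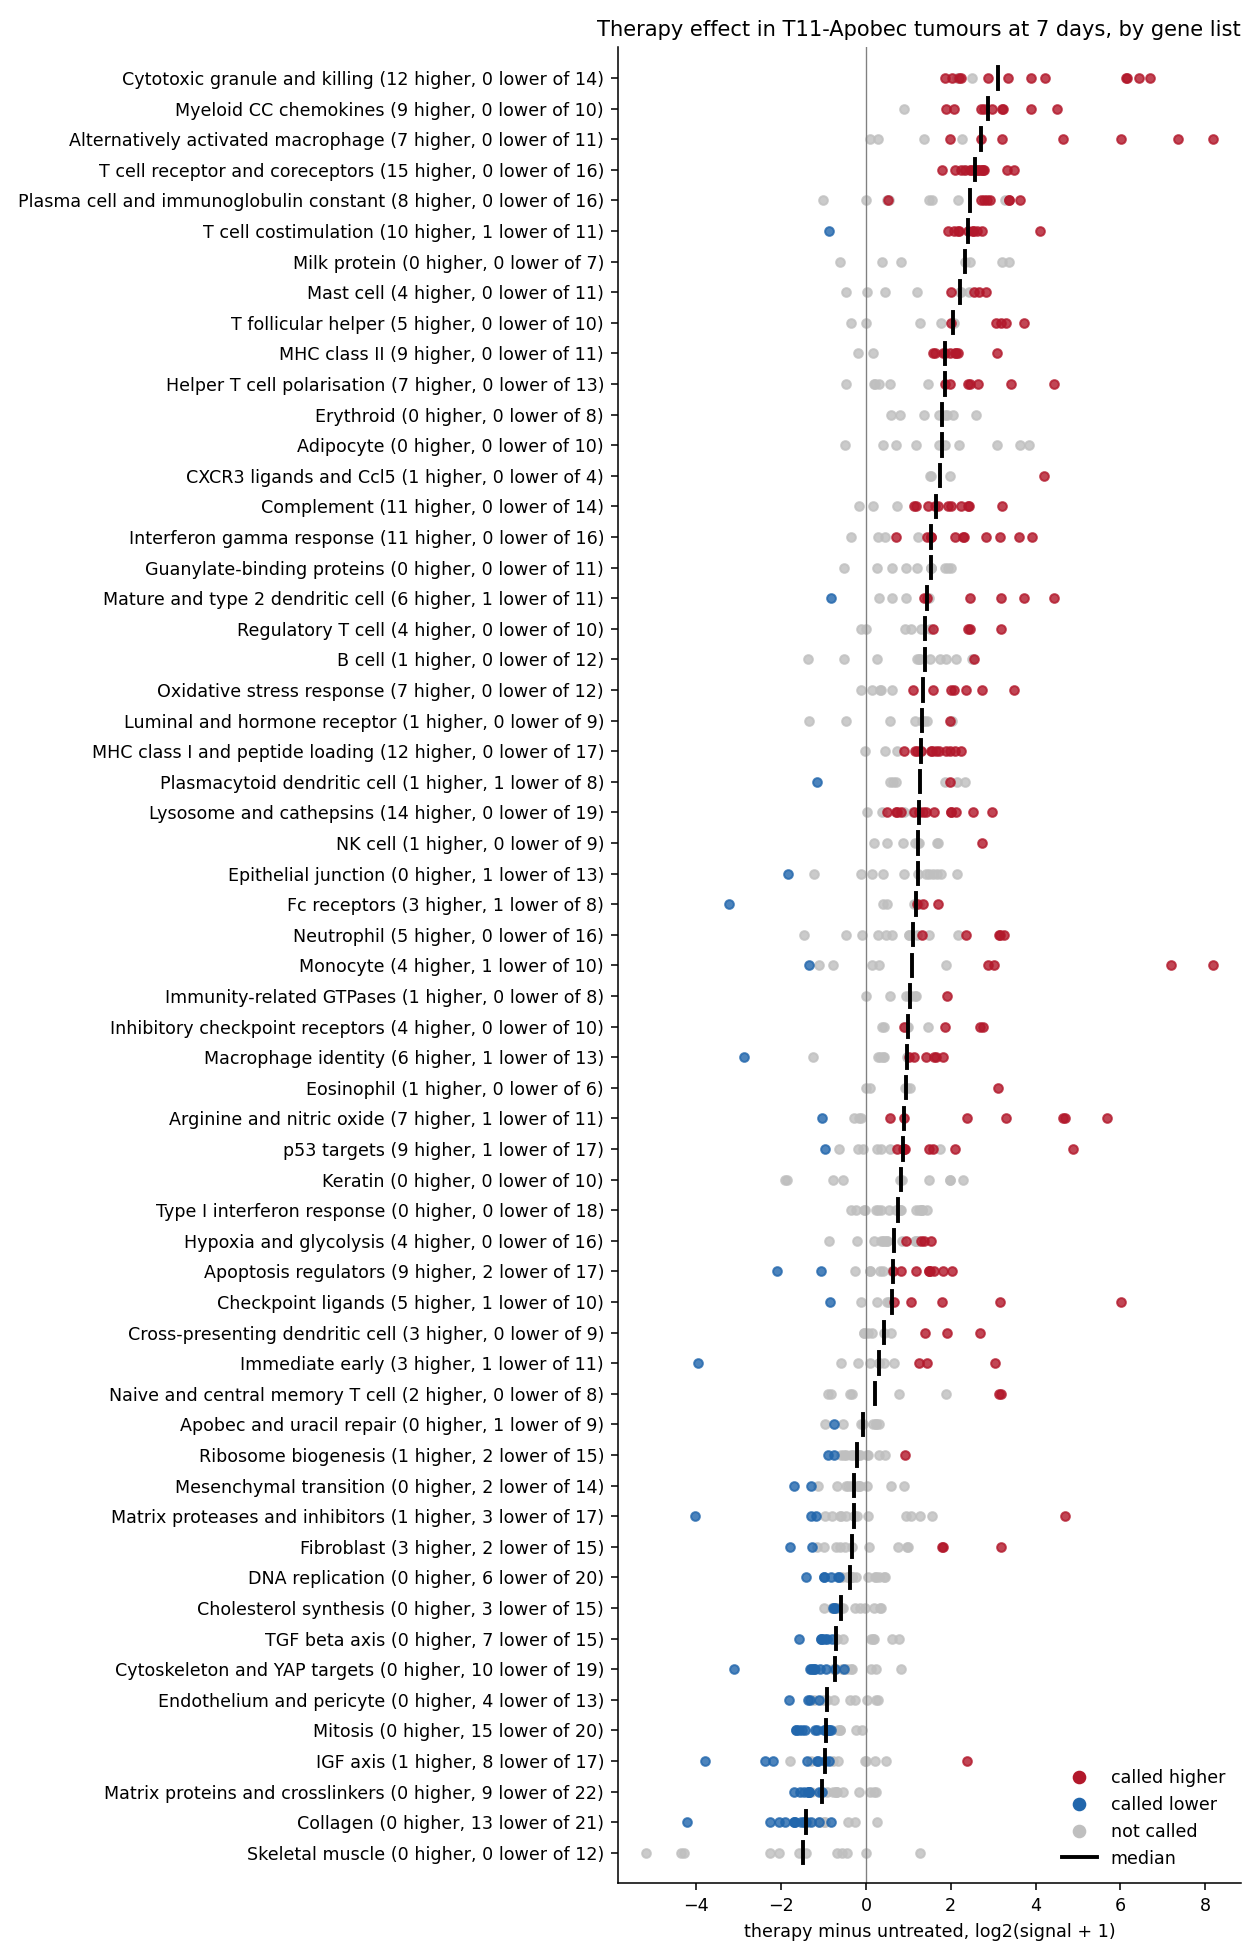
Therapy minus untreated difference, on log2(signal + 1), of each tested member of the 59 gene lists in T11-Apobec tumours at 7 days, 1 list to a line, with called rises in red, called falls in blue, other members in grey and a black bar at the list's median. Counts stand beside each name, for example 12 higher of 14 for cytotoxic granule and killing at the top and 15 lower of 20 for mitosis near the bottom.

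T cell genes rose nearly throughout. In the list of T cell receptor components, coreceptors and proximal signalling genes, 15 of 16 rose and none fell, with a median log2 difference of 2.58, against -0.03 over all genes. The list mean on the log2 scale was 10.13, 10.36, 9.86 and 9.77 in therapy tumours, against 7.85, 7.32, 7.40 and 7.21 in untreated tumours. Cd3e, a signalling chain of the T cell receptor complex, had 1275, 1484, 902 and 967 in therapy tumours, against 253, 133, 162 and 128 in untreated tumours, a log2 difference of 2.80 ± 0.85 (limma adjusted p = 0.00808). Every therapy tumour lay above the highest untreated one, which was untreated replicate 1. Lat, the adaptor that relays the receptor signal, had 1706, 1224, 786 and 1104 in therapy tumours, against 129, 105, 80.9 and 97.6 in untreated tumours, a log2 difference of 3.50 ± 0.65 (limma adjusted p = 1.69e-05). Cd4, the coreceptor of helper T cells, had 1714, 1260.1, 1185 and 887 in therapy tumours, against 275, 331, 271 and 270.3 in untreated tumours, a log2 difference of 2.10 ± 0.52 (limma adjusted p = 0.00128). Lck and Zap70, the kinases that start the signal, rose by log2 differences of 2.45 (adjusted p = 0.000130) and 2.64 (adjusted p = 0.000407). Cd8a, the coreceptor of killer T cells, missed the threshold with 1684, 3249.8, 1414 and 1661 in therapy tumours, against 608, 305, 417 and 276 in untreated tumours, a log2 difference of 2.31 ± 0.98 (limma adjusted p = 0.0638), although the arms did not overlap. In these bulk tumours, more T cells and more RNA per T cell cannot be told apart.

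Genes of several T cell programmes rose. In the helper T cell polarisation list 7 of 13 rose and none fell. Ifng, which encodes interferon gamma, had 810.3, 455, 1002 and 759.5 in therapy tumours, against 90.8, 75.7, 47.8 and 61.9 in untreated tumours, a log2 difference of 3.42 ± 1.10 (limma adjusted p = 0.0129). The type 1 helper genes Il12rb1, Stat4 and Cxcr3 rose by log2 differences of 1.86 (adjusted p = 0.000670), 2.40 (adjusted p = 0.000765) and 2.46 (adjusted p = 0.00321). Il13, a type 2 helper cytokine, had 56.7, 5.42, 54.0 and 51.1 in therapy tumours, against 0, 1.56, 0 and 0.939 in untreated tumours, a log2 difference of 4.43 ± 1.03 (limma adjusted p = 0.000586), with therapy replicate 2 well below the other 3 and untreated tumours at 0 to 2 reads. The regulatory T cell list had 4 of 10 higher, among them Il2ra, the high-affinity interleukin 2 receptor chain, with 975, 617, 1978 and 483 in therapy tumours, against 139, 79.5, 91.7 and 82.6 in untreated tumours, a log2 difference of 3.17 ± 0.69 (limma adjusted p = 0.000236). Foxp3, the factor that defines regulatory T cells, had 219, 132, 131 and 146 in therapy tumours, against 66.2, 90.4, 67.9 and 70.6 in untreated tumours, a log2 difference of 1.06 ± 0.48 (limma adjusted p = 0.0837) and was not called. The T follicular helper list had 5 of 10 higher, led by the cytokine Il21, which had 45.0, 32.5, 32.6 and 19.5 in therapy tumours, against 1.65, 3.12, 1.95 and 3.75 in untreated tumours, a log2 difference of 3.19 ± 0.62 (limma adjusted p = 4.68e-05). Ccr7 and Il7r, which naive and memory T cells use for homing and survival, rose by log2 differences of 3.19 (adjusted p = 0.000238) and 3.13 (adjusted p = 7.47e-06), while the other 6 tested genes of the naive and central memory list were not called.

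Killing genes rose, with a wide spread among the therapy tumours. Of 14 tested genes of cytotoxic granules and killing, 12 rose and none fell (median log2 difference 3.11), and 9 rose without therapy replicate 1. Gzmb, the granzyme that cleaves caspases, had 6424, 3842, 12835 and 4404 in therapy tumours, against 830.2, 569, 439.7 and 633 in untreated tumours, a log2 difference of 3.34 ± 1.06 (limma adjusted p = 0.0112). Gzmk, a granzyme of memory-like killer T cells, had 629, 607, 528 and 322 in therapy tumours, against 31.4, 24.96, 29.3 and 20.6 in untreated tumours, a log2 difference of 4.21 ± 0.76 (limma adjusted p = 9.93e-06). Prf1, the pore protein perforin, had 860.3, 1187, 6050.0 and 773 in therapy tumours, against 398, 206, 255 and 215.9 in untreated tumours, a log2 difference of 2.51 ± 1.06 (limma adjusted p = 0.0611), with therapy replicate 3 far above the other 3. It was not called. With the spread of the 8 tumours alone Cd8a and Prf1 were both called (limma adjusted p = 0.000971 and 0.0099). Without therapy replicate 1, under the pooled spread, neither was (limma adjusted p = 0.128 and 0.0929).

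The steepest granzyme rises were in the neighbouring genes Gzmd, Gzme, Gzmf and Gzmg on chromosome 14 (GRCm38 chr14:56129556-56132608, chr14:56117626-56120625, chr14:56205263-56211417 and chr14:56156582-56159579, minus strand). Gzmg had 15707, 2105, 29047 and 2136 in therapy tumours, against 27.2, 89.1, 159.9 and 43.2 in untreated tumours, a log2 difference of 6.69 ± 1.53 (limma adjusted p = 0.000471). Gzmd, Gzme and Gzmf rose by log2 differences of 6.16 (adjusted p = 0.000366), 6.45 (adjusted p = 9.00e-06) and 6.14 (adjusted p = 0.00121). In each of the 4 genes therapy replicates 1 and 3 were several times above therapy replicates 2 and 4, and all 4 therapy tumours were above all untreated ones. The genes are close copies, so reads may be shared among them and the split between them is uncertain. Their promoters are close copies too, as 120 bases of each from the 250 before the RefSeq start show, with capitals marking the 36-base run that the 4 share:
Gzmd, GRCm38.p6 chr14:56132594-56132713 on the minus strand: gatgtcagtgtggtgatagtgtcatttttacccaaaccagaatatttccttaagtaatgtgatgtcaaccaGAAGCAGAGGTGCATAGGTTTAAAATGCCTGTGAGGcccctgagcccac
Gzme, GRCm38.p6 chr14:56120626-56120745 on the minus strand: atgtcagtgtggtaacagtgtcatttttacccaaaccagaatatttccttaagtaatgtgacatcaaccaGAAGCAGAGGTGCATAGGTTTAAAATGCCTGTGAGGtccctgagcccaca
Gzmf, GRCm38.p6 chr14:56211408-56211527 on the minus strand: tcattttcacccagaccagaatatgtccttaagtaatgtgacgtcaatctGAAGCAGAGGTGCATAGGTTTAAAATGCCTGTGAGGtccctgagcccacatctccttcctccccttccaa
Gzmg, GRCm38.p6 chr14:56159580-56159699 on the minus strand: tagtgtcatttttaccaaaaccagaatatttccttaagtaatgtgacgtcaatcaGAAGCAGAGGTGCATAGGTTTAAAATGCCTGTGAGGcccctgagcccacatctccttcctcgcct
In pairs aligned at this run, the stretch of the first gene was 92.5% to 97.5% identical to the aligned upstream bases of the second. Between 115 and 120 bases were compared, and those of the second gene may lie partly outside the stretch shown. The 36-base run occurred, on either strand, in 4 of the 32851 promoters of the RefSeq table (0.0122%), which were these 4.

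The receptors that the antibodies bind and both ligands of PD-1 rose. Pdcd1, which encodes PD-1, had 1097, 1352, 1182 and 883 in therapy tumours, against 259.9, 111, 177 and 169.9 in untreated tumours, a log2 difference of 2.69 ± 0.72 (limma adjusted p = 0.00264). Ctla4 had 380.1, 235, 674 and 161 in therapy tumours, against 59.4, 33.5, 45.8 and 46.9 in untreated tumours, a log2 difference of 2.76 ± 0.75 (limma adjusted p = 0.00305). No therapy tumour overlapped an untreated one for either gene. Lag3, a further inhibitory receptor, rose by a log2 difference of 1.87 (adjusted p = 0.00145), and 4 of 10 tested inhibitory receptor genes rose in all. Pdcd1lg2 (GRCm38 chr19:29410919-29471161), which encodes PD-L2, had 9741, 2763, 6236 and 5961 in therapy tumours, against 138, 75.7, 46.8 and 115 in untreated tumours, a log2 difference of 6.01 ± 1.09 (limma adjusted p = 1.19e-05). Its neighbour Cd274 (chr19:29367455-29388095), which encodes PD-L1, had 17195, 8655, 24016 and 10118 in therapy tumours, against 2223, 1613, 1121 and 1441 in untreated tumours, a log2 difference of 3.15 ± 0.67 (limma adjusted p = 0.000182). Cd80, the ligand shared by CTLA-4 and the costimulatory receptor CD28, rose by a log2 difference of 1.78 (adjusted p = 0.00148). In the ligand list 5 of 10 rose and 1 fell, the fall being Cd276, a ligand of the same family, with 2204, 3407, 2516 and 2818 in therapy tumours, against 4884, 5118, 4957 and 4645 in untreated tumours, a log2 difference of -0.86 ± 0.23 (limma adjusted p = 0.00226).

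Costimulatory genes rose nearly throughout, 10 of 11 higher and 1 lower (median 2.41), the lower one being Icosl, the ligand of ICOS (log2 difference -0.87, adjusted p = 0.021), which was not called without therapy replicate 1. Tnfrsf4 and Tnfrsf18, the receptors OX40 and GITR, rose by log2 differences of 2.52 (adjusted p = 5.73e-05) and 2.41 (adjusted p = 3.04e-05). Tnfsf9, the ligand of 4-1BB, had 569, 285, 369.9 and 298 in therapy tumours, against 62.7, 64.0, 48.8 and 78.8 in untreated tumours, a log2 difference of 2.53 ± 0.42 (limma adjusted p = 2.00e-06). Cd70, the ligand of CD27, had 70.0, 24.8, 29.8 and 36.3 in therapy tumours, against 0.825, 2.34, 0.975 and 0.939 in untreated tumours, a log2 difference of 4.11 ± 0.73 (limma adjusted p = 7.43e-06), from an untreated level of 1 to 3 reads. Cd28 itself rose by a log2 difference of 2.68 (adjusted p = 0.000645).

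**Figure D2:**
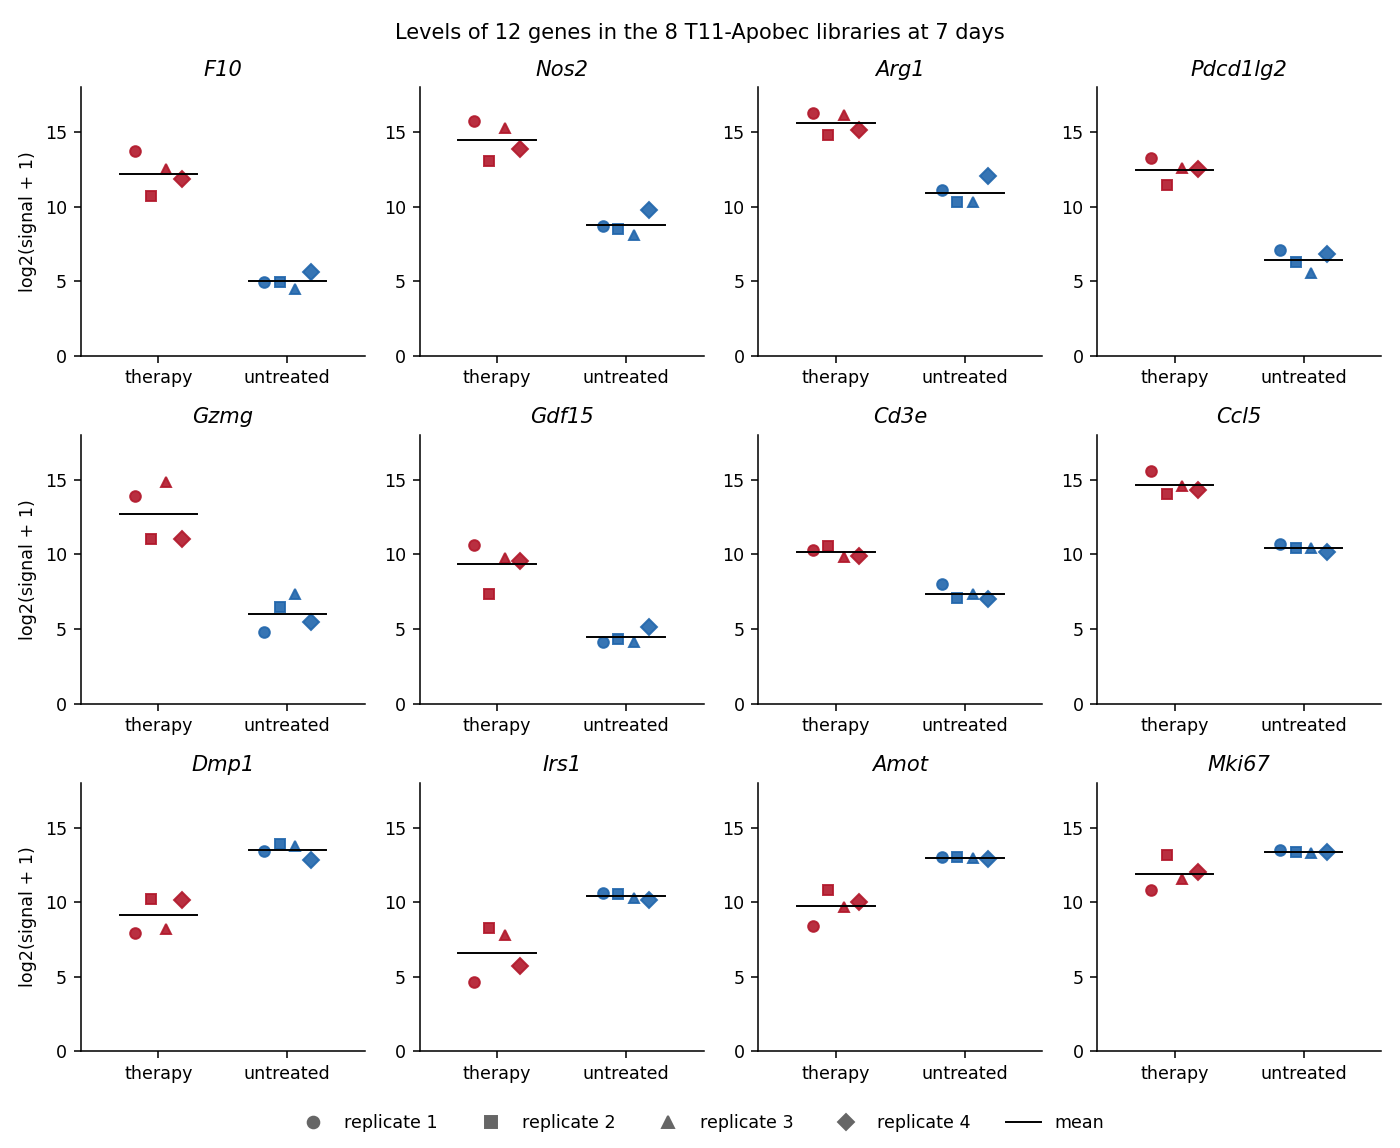
Level of 12 genes, as log2(signal + 1), in each of the 8 tumours, therapy left and untreated right, with a marker shape for each replicate and a line at the arm mean. F10, Nos2, Arg1, Pdcd1lg2, Gzmg, Gdf15, Cd3e and Ccl5 lie higher with therapy and Dmp1, Irs1, Amot and Mki67 lie lower, with no overlap between arms in any of the 12, and therapy replicates 1 and 2 are often the extremes of their arm.

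Interferon gamma targets rose in part. In the interferon gamma response list 11 of 16 rose and none fell (median 1.54), and 5 rose without therapy replicate 1. Socs1, the feedback inhibitor of the interferon gamma receptor, had 9405, 2296, 4460.4 and 5731 in therapy tumours, against 695, 661, 625 and 769.7 in untreated tumours, a log2 difference of 2.82 ± 0.57 (limma adjusted p = 8.68e-05). Irf1, the transcription factor induced first by the pathway, had 44627, 27013, 35784 and 37943 in therapy tumours, against 15291, 12817, 11604 and 13193 in untreated tumours, a log2 difference of 1.44 ± 0.40 (limma adjusted p = 0.00349). Icam1, an adhesion ligand for T cells, rose by a log2 difference of 1.54 (adjusted p = 0.00193). Cxcl9, a chemokine that draws CXCR3-bearing T cells, had 35319, 47803, 32772 and 44992 in therapy tumours, against 17431, 12299, 10819 and 15619 in untreated tumours, a log2 difference of 1.53 ± 1.15 (limma adjusted p = 0.333). It was not called, though its arms did not overlap.

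The promoters of Irf1 and Socs1 are shown because each holds 1 of the 2 motifs searched. Capitals mark the interferon gamma activated site (TTCNNNGAA) in Irf1 and 2 overlapping copies of the interferon stimulated response element (searched as 2 GAAA blocks with any 2 bases between them) in Socs1, 80 bases of RefSeq sequence each:
Irf1, GRCm38.p6 chr11:53769888-53769967 on the plus strand: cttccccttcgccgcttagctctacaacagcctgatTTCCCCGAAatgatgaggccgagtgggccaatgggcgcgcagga
Socs1, GRCm38.p6 chr16:10785572-10785651 on the minus strand: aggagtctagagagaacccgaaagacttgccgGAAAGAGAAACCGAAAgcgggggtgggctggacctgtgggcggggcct
Of the 12 genes of the interferon gamma list with a promoter in the table, Icam1, Irf1, Psmb8 and Serpina3g held the first motif on either strand in the 250 bases before the start (33.3%, against 7.02% of all promoters). Socs1 alone held the second (8.33%, against 2.98%). The list shares count genes with a match in any of their promoters, while the shares of all promoters count each promoter singly. A match is a description of these letters, not a site.

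Interferon-induced GTPases and type I interferon genes were mostly not called. None of 11 guanylate-binding protein genes passed the threshold, with a median log2 difference of 1.52. Of 8 immunity-related GTPases only Igtp rose, with a log2 difference of 1.92 (adjusted p = 0.0376), and without therapy replicate 1 its value was 1.90 (adjusted p = 0.0966). None of 18 type I interferon response genes passed, with a median of 0.75. Every therapy tumour nevertheless lay above every untreated one in 8 of the 11 guanylate-binding protein genes. The same held for 5 of the 8 GTPases and 11 of the 18 type I genes, against 22.1% of all genes tested.

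Antigen presentation genes were higher in both classes. Of 17 tested genes of MHC class I and peptide loading 12 rose (median 1.31), and of 11 class II genes 9 rose (median 1.87), with no falls. These counts were 4 and 3 without therapy replicate 1, which was the highest of the 8 tumours for the class I genes H2-D1 and H2-T23 and for the class II genes H2-Ab1, H2-DMa and H2-Oa. H2-T23, a non-classical class I gene, had 62167, 23352, 37912 and 39088 in therapy tumours, against 9669, 8078, 7164 and 7677 in untreated tumours, a log2 difference of 2.24 ± 0.44 (limma adjusted p = 5.95e-05). Tapbp, which loads peptide onto class I, rose by a log2 difference of 1.31 (adjusted p = 0.000426). Ctss, the protease that frees class II molecules for peptide, had 289861, 118978, 197882 and 157348 in therapy tumours, against 47888, 38066, 38253 and 41946 in untreated tumours, a log2 difference of 2.13 ± 0.40 (limma adjusted p = 2.68e-05). H2-Ab1, a class II chain, rose by a log2 difference of 2.10 (adjusted p = 0.00932), with 1.81 (adjusted p = 0.0701) without therapy replicate 1. Class I genes are near-identical copies, so reads may be shared among them. Ciita, the master regulator of class II genes, had 1077, 4099, 3128 and 2449.7 in therapy tumours, against 3917, 2909.8, 2305 and 2152 in untreated tumours, a log2 difference of -0.19 ± 0.68 (limma adjusted p = 0.880). The arms overlapped, and the difference was 0.20 (adjusted p = 0.906) without therapy replicate 1, so its direction is not fixed by these tumours.

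Complement genes followed the same direction, 11 of 14 higher and none lower (median 1.66), with 7 higher without therapy replicate 1. C3, the central component, had 51248, 48172, 54686 and 34501 in therapy tumours, against 5651, 5427, 4657 and 4451 in untreated tumours, a log2 difference of 3.21 ± 0.68 (limma adjusted p = 0.000170). All therapy tumours lay far above all untreated ones. Cfp, which stabilises the alternative pathway, had 18544, 10479.7, 9681 and 11896 in therapy tumours, against 2268, 2227, 2241 and 2469 in untreated tumours, a log2 difference of 2.41 ± 0.43 (limma adjusted p = 8.50e-06). C1s1, a protease of the classical pathway, and Serping1, its inhibitor, rose by log2 differences of 2.44 (adjusted p = 0.000209) and 2.24 (adjusted p = 0.00171).

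Myeloid genes were among the largest rises. F10 (GRCm38 chr8:13037308-13056676), which encodes coagulation factor X and is made by liver and by macrophages, had 13708, 1647, 5769 and 3688 in therapy tumours, against 29.7, 29.6, 21.5 and 48.8 in untreated tumours, a log2 difference of 7.19 ± 0.97 (limma adjusted p = 4.64e-09), or 146-fold. The lowest therapy tumour, replicate 2, was far above the highest untreated one. Clec4d and Clec4e, paired lectin receptors of activated macrophages, rose by log2 differences of 5.00 (adjusted p = 1.72e-08) and 4.56 (adjusted p = 1.27e-07). Saa3, an acute-phase protein of inflamed tissue, had 16062, 2808, 7226 and 4331 in therapy tumours, against 118, 97.5, 176 and 352 in untreated tumours, a log2 difference of 5.22 ± 1.07 (limma adjusted p = 9.44e-05). Mmp12, the macrophage elastase, had 94121, 9851, 50684 and 17227 in therapy tumours, against 1161, 1069, 1047 and 1353 in untreated tumours, a log2 difference of 4.70 ± 0.87 (limma adjusted p = 1.66e-05). Cst7, a cystatin of immune cells, rose by a log2 difference of 4.37 (adjusted p = 4.60e-06). In each of these genes therapy replicate 1 or 3 was the highest tumour and therapy replicate 2 the lowest of its arm.

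Enzymes of both fates of arginine rose together. Nos2 (chr11:78920787-78960254), which makes nitric oxide from arginine, had 55177, 8336, 38832 and 14614 in therapy tumours, against 416, 365, 276 and 873 in untreated tumours, a log2 difference of 5.69 ± 0.80 (limma adjusted p = 2.87e-08). Arg1 (chr10:24915221-24927484), which breaks arginine down to ornithine, had 80217, 27982, 73077 and 35663 in therapy tumours, against 2170.3, 1294, 1289.9 and 4165 in untreated tumours, a log2 difference of 4.64 ± 0.99 (limma adjusted p = 0.000182). Slc7a2, which imports arginine, had 27539, 3940.4, 12904 and 7571 in therapy tumours, against 467, 349, 354 and 416 in untreated tumours, a log2 difference of 4.69 ± 0.70 (limma adjusted p = 1.27e-07). No arm overlapped the other in any of the 3. Arg2 and Ass1, a mitochondrial arginase and the enzyme that rebuilds arginine from citrulline, rose by log2 differences of 3.30 (adjusted p = 0.000123) and 2.38 (adjusted p = 0.000167). The list as a whole had 7 of 11 higher and 1 lower, Nos3, the nitric oxide synthase of endothelium (log2 difference -1.04, adjusted p = 0.0121), which was not called without therapy replicate 1. The alternatively activated macrophage list had 7 of 11 higher (median 2.70). It includes Il1rn, the interleukin 1 receptor antagonist, which rose by a log2 difference of 2.70 (adjusted p = 2.34e-05), and Chil3, a chitinase-like protein, which had 7297, 41.0, 1959.5 and 306 in therapy tumours, against 1.65, 1.56, 0.975 and 0.939 in untreated tumours, a log2 difference of 8.18 ± 1.53 (limma adjusted p = 2.05e-05). Chil3 lay at 1 or 2 reads in the untreated tumours, so the size of its fold rests on the pseudocount.

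CC chemokines made by myeloid cells rose in 9 of 10 cases (median 2.88), and in 6 without therapy replicate 1. Ccl6 and Ccl9 rose by log2 differences of 4.52 (adjusted p = 1.59e-06) and 2.78 (adjusted p = 0.000193). Ccl8 had 111336, 44782, 33999.5 and 58423 in therapy tumours, against 4173, 2948, 3039 and 5503 in untreated tumours, a log2 difference of 3.89 ± 0.93 (limma adjusted p = 0.000793). Ccl5, which attracts T cells and is made by T cells and macrophages, had 48173, 16570.3, 24489 and 20760.2 in therapy tumours, against 1654, 1387, 1369.9 and 1127 in untreated tumours, a log2 difference of 4.20 ± 0.71 (limma adjusted p = 2.80e-06). Ccl11, the eosinophil attractant, rose by a log2 difference of 3.24 (adjusted p = 0.000568).

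General macrophage markers split. In the macrophage identity list 6 of 13 rose and 1 fell. Lyz2, the lysozyme of macrophages and granulocytes, had 419071, 364434, 415122 and 406693 in therapy tumours, against 112031, 108163, 113679 and 123857 in untreated tumours, a log2 difference of 1.81 ± 0.33 (limma adjusted p = 1.42e-05), and Cd68, an endosomal protein of macrophages, rose by a log2 difference of 1.65 (adjusted p = 5.07e-05). Adgre1, which encodes the surface marker F4/80, had 4765, 7788, 8392 and 6977 in therapy tumours, against 6151, 5055, 5389 and 5305 in untreated tumours, a log2 difference of 0.32 ± 0.37 (limma adjusted p = 0.547). The arms overlapped. Cx3cr1, the fractalkine receptor of patrolling monocytes and some resident macrophages, fell, with 503, 4236, 668 and 3519.7 in therapy tumours, against 13544, 10037, 9823 and 11205 in untreated tumours, a log2 difference of -2.88 ± 0.63 (limma adjusted p = 0.000275). Fcrls, an Fc receptor-like gene of resident macrophages, fell too, with 100.0, 89.8, 55.0 and 89.2 in therapy tumours, against 627, 631, 778 and 1178 in untreated tumours, a log2 difference of -3.24 ± 0.72 (limma adjusted p = 0.000327). In both genes all therapy tumours were below all untreated ones, while Fcgr3 and Fcer1g, which bind and signal for IgG, rose by log2 differences of 1.35 (adjusted p = 0.00103) and 1.71 (adjusted p = 0.000819). The monocyte list had 4 of 10 higher and 1 lower, Vcan, a proteoglycan that stroma also makes (log2 difference -1.35, adjusted p = 0.0325), which was not called without therapy replicate 1 or after the length and GC trend was removed. Ly6c2, the marker of inflammatory monocytes, had 1363, 1321, 1302 and 1259.8 in therapy tumours, against 270.4, 162, 136 and 164 in untreated tumours, a log2 difference of 2.88 ± 0.79 (limma adjusted p = 0.00331), a tight set in the therapy arm.

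Some dendritic cell genes rose. The cross-presenting dendritic cell list had 3 of 9 higher, namely Batf3, Irf8 and Clec9a, with log2 differences of 2.69 (adjusted p = 0.000395), 1.40 (adjusted p = 0.00176) and 1.91 (adjusted p = 0.00419). The list of mature and type 2 dendritic cells had 6 of 11 higher and 1 lower. Ccl22, which draws regulatory T cells, had 2054, 631, 1115 and 1491 in therapy tumours, against 115, 90.5, 85.8 and 77.9 in untreated tumours, a log2 difference of 3.72 ± 0.80 (limma adjusted p = 0.000223), and Ccl17 rose by a log2 difference of 4.44 (adjusted p = 3.90e-05). The fall was Fscn1, an actin bundler that mesenchymal cells also express, with a log2 difference of -0.83 (adjusted p = 0.000869).

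Other immune lineages gave calls that were few or rested in part on therapy replicate 1. The median log2 differences of the NK cell and B cell lists were 1.23 and 1.38. In 5 of 9 NK cell genes and 8 of 12 B cell genes every therapy tumour lay above every untreated one, against 22.1% of all genes tested. In 1 B cell gene every one lay below, against 22.8%. Of 9 NK cell genes 1 rose, Klrc1, a receptor shared with T cells, by a log2 difference of 2.75 (adjusted p = 0.00321), and of 12 B cell genes 1 rose, Cd22, by a log2 difference of 2.55 (adjusted p = 0.000394). The plasma cell and immunoglobulin list had 8 of 16 higher and 1 without therapy replicate 1, and Irf4, a factor shared by plasma cells and activated T cells, rose by a log2 difference of 2.92 (adjusted p = 8.85e-05) with all tumours. Of 16 neutrophil genes 5 rose, and 2 did without therapy replicate 1. S100a8, a calcium-binding protein of granulocytes and monocytes, had 1095, 205, 580.5 and 298 in therapy tumours, against 39.6, 44.5, 21.5 and 159.6 in untreated tumours, a log2 difference of 3.13 ± 0.88 (limma adjusted p = 0.00409), whereas Ly6g, the marker that defines mouse neutrophils, stayed between 0 and 4.65 in all 8 tumours. The mast cell list had 4 of 11 higher, and none without therapy replicate 1. Tpsab1, a tryptase, had a log2 difference of 2.67 (adjusted p = 0.0444) with all tumours and 2.64 (adjusted p = 0.110) without that one.

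**Figure D3:**
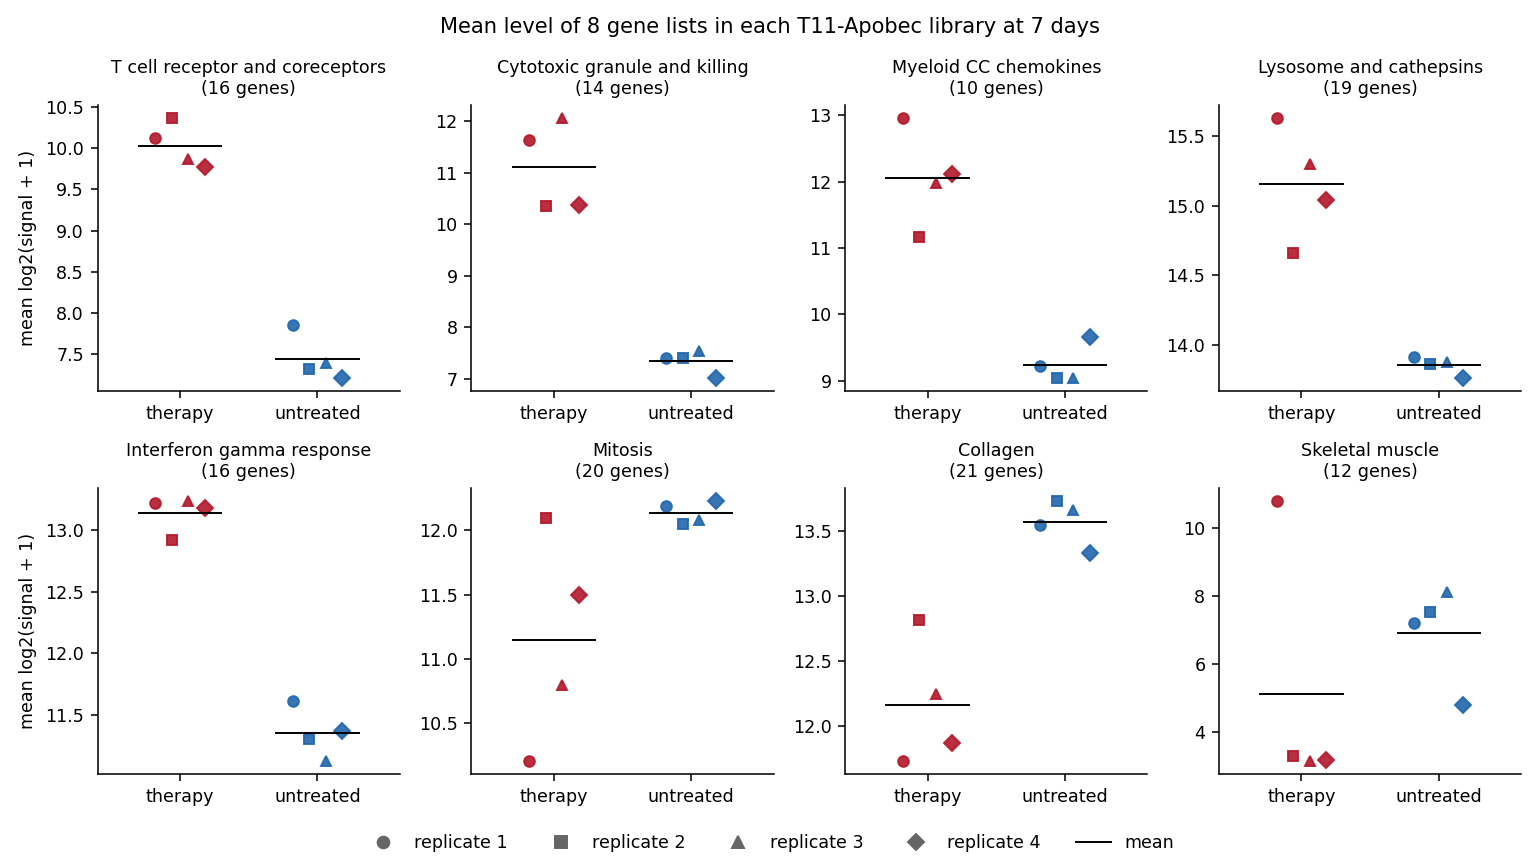
Mean log2(signal + 1) of 8 gene lists in each of the 8 tumours, therapy left and untreated right, with a marker shape for each replicate. T cell, cytotoxic, chemokine, lysosome and interferon gamma lists lie higher with therapy and collagen lies lower, the mitosis mean of therapy replicate 2 sits inside the untreated range, and skeletal muscle is high in therapy replicate 1 (10.77) and between 3.15 and 3.30 in the other therapy tumours, with untreated tumours at 4.78 to 8.10.

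Lysosomal genes rose, and among them was the gene with the smallest adjusted p of those named. Of 19 tested genes of the lysosome and cathepsin list 14 rose and none fell (median 1.25). Creg1, a lysosomal glycoprotein of macrophages and other cells, had 26245, 7866, 19909 and 11641 in therapy tumours, against 2023, 1740.0, 2012 and 1720.5 in untreated tumours, a log2 difference of 2.98 ± 0.26 (limma adjusted p = 3.05e-18). Ctsd, the aspartic protease cathepsin D, had 322025, 74769, 173587 and 109094 in therapy tumours, against 22829, 25756, 26721 and 26447 in untreated tumours, a log2 difference of 2.52 ± 0.32 (limma adjusted p = 4.80e-10). Ctsz and Ctsb, cysteine cathepsins, rose by log2 differences of 2.01 (adjusted p = 2.64e-11) and 1.59 (adjusted p = 7.38e-10). Therapy replicate 1 was highest in all 4 genes and replicate 2 lowest of its arm, and the arms did not overlap.

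Iron storage and oxidative stress genes rose in 7 of 12 cases. Fth1, the heavy chain of ferritin, had 848077, 244163, 645974 and 428886 in therapy tumours, against 72273, 72634, 75554 and 70939 in untreated tumours, a log2 difference of 2.75 ± 0.32 (limma adjusted p = 2.28e-11). Ftl1, the light chain, had 1046890, 241747, 562753 and 502241 in therapy tumours, against 100796, 104639, 103527 and 94277 in untreated tumours, a log2 difference of 2.36 ± 0.31 (limma adjusted p = 2.74e-09). Ferritin genes have many processed copies, so part of these reads may belong elsewhere. Prdx1 and Sod2, which remove peroxide and superoxide, rose by log2 differences of 2.00 (adjusted p = 3.24e-10) and 2.07 (adjusted p = 1.34e-09). Mgst1, a membrane glutathione transferase, had 15109.7, 3471, 8742 and 6637 in therapy tumours, against 458, 340.0, 464 and 367 in untreated tumours, a log2 difference of 4.20 ± 0.53 (limma adjusted p = 7.21e-10).

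Genes of growth arrest and cell death rose in part. In the p53 target list 9 of 17 rose and 1 fell, Sesn1, a stress sensor (log2 difference -0.96, adjusted p = 0.0154). Without therapy replicate 1 the list had 5 higher and none lower. Membership of this list does not show that p53 was active, and the part of p53 in these rises was not tested. Gdf15, a stress cytokine, had 1570.5, 159, 881 and 766 in therapy tumours, against 16.5, 18.7, 16.6 and 34.7 in untreated tumours, a log2 difference of 4.89 ± 0.54 (limma adjusted p = 3.07e-12). Cdkn1a, the cell cycle inhibitor p21, had 13148, 5555, 10899 and 8319 in therapy tumours, against 1982, 2146, 1778 and 2564 in untreated tumours, a log2 difference of 2.10 ± 0.45 (limma adjusted p = 0.000177), and Bax and Fas, a pore former of mitochondria and a death receptor, rose by log2 differences of 1.49 (adjusted p = 3.13e-06) and 1.59 (adjusted p = 0.000248). Among apoptosis regulators 9 of 17 rose and 2 fell. The falls included Xiap, an inhibitor of cell death (log2 difference -1.05, limma adjusted p = 0.000587). The lowest log2 difference of the list was -2.09, in another gene. Without therapy replicate 1 the list had 8 higher and 1 lower. The survival genes Mcl1 and Bcl2l1 rose by log2 differences of 0.82 (adjusted p = 6.28e-06) and 1.17 (adjusted p = 0.000192), and Bcl2a1b, one of several near-identical copies, by a log2 difference of 2.03 (adjusted p = 4.82e-05). Atf3, a stress-induced factor of the immediate early list, had 10068, 2309, 8652 and 5091 in therapy tumours, against 686, 774, 558 and 762 in untreated tumours, a log2 difference of 3.04 ± 0.52 (limma adjusted p = 3.36e-06).

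Calls in both directions varied with transcript length. With genes split into 4 equal classes by the length of their longest annotated transcript, 19.4% of the shortest class rose and 4.81% fell, then 17.2% and 7.64%, then 11.6% and 14.7%, and in the longest class 6.04% rose and 35.2% fell. The median log2 difference was 0.32 in the shortest class and -0.47 in the longest. Each library's log2 deviation was taken from the mean of the 4 untreated tumours. The median deviation of the longest class minus that of the shortest was -1.21, -0.34, -0.55 and -1.04 in therapy tumours, against 0.06, 0.06, -0.02 and -0.12 in untreated tumours. The untreated values lie around 0 by this choice of reference. Therapy replicate 2, the nearest to the untreated tumours here, was also the nearest on the first principal component. After a trend on length and GC content was removed within each library, a step added after the data were seen, 2383 genes rose and 2223 fell of 20525, of which 1892 and 1899 had been called before. Falls then numbered 15 in mitosis, 8 in collagen, 5 in matrix proteins, 8 in the cytoskeleton and YAP list, 3 in TGF beta, 5 in the IGF list and 2 in DNA replication. Rises then numbered 9 in MHC class I and peptide loading, 5 in MHC class II, 8 in complement, 5 in the plasma cell list, 1 in the mast cell list, 15 in the T cell receptor list, 11 in the killing list and 13 in the lysosome list. The part that RNA quality or library preparation had in the length trend was not tested.

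**Figure D4:**
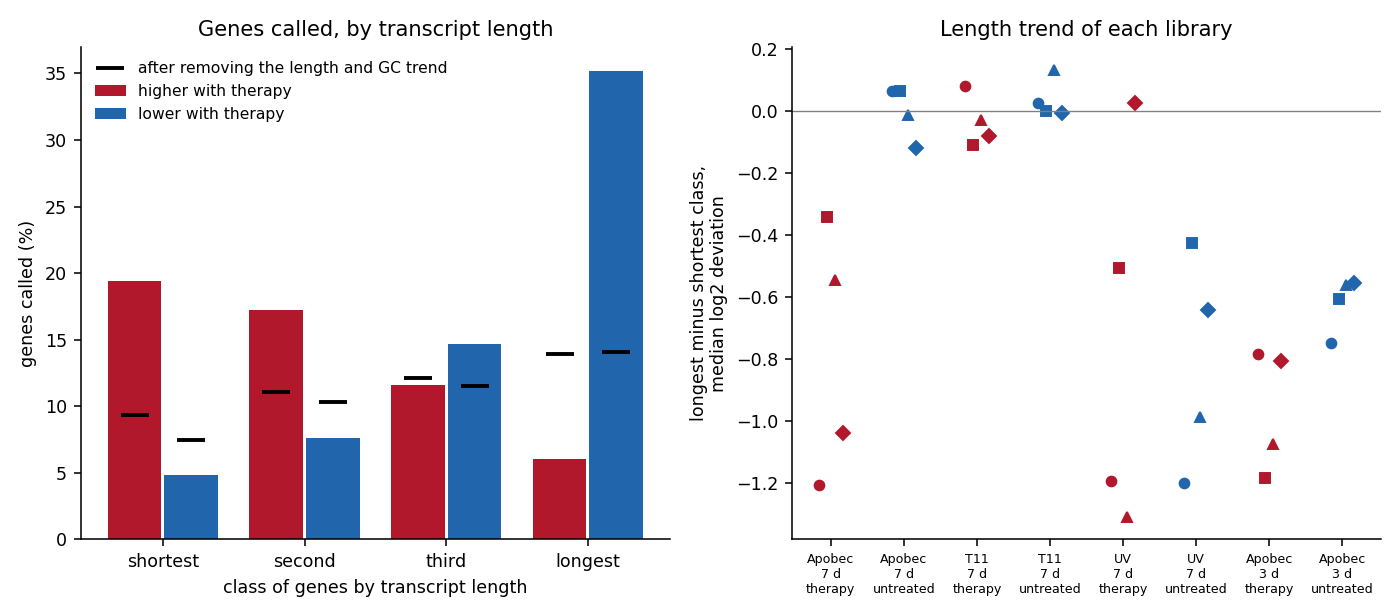
Left, percentage of genes that rose (red) or fell (blue) with therapy by class of transcript length, with black ticks for the same after the length and GC trend was removed. Right, the longest class minus the shortest in each library of 4 tumour sets, therapy red and untreated blue. The T11-Apobec therapy tumours at 7 days lie between -1.21 and -0.34. Their untreated tumours lie near 0 because their mean is the reference for every library. T11 tumours lie near 0 in both arms, and T11-UV tumours and T11-Apobec tumours at 3 days reach low values in both arms.

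Mitosis genes fell and did so unevenly between tumours. Of 20 tested mitosis genes 15 fell and none rose (median -0.94), and 4 fell without therapy replicate 1. The list mean was 10.21, 12.10, 10.79 and 11.49 in therapy tumours, against 12.19, 12.05, 12.08 and 12.23 in untreated tumours. Therapy replicate 2 lay inside the untreated range and the other 3 below it. Mki67, the marker of dividing cells, had 1796, 9009, 2943 and 4132 in therapy tumours, against 11679.7, 10734, 10166 and 10517 in untreated tumours, a log2 difference of -1.52 ± 0.33 (limma adjusted p = 0.000264). Cenpe, a motor that moves chromosomes, had 580.2, 3831, 1262 and 1628 in therapy tumours, against 5019, 4638, 4248 and 4399 in untreated tumours, a log2 difference of -1.64 ± 0.34 (limma adjusted p = 0.000118). Cenpf and Kif23, of the kinetochore and of cell separation, fell by 1.65 (adjusted p = 0.000337) and by 1.58 (adjusted p = 0.000609) on the log2 scale. DNA replication genes gave 6 falls of 20 (median -0.38), and none without therapy replicate 1. Pole, a replicative polymerase, had a log2 difference of -1.42 (adjusted p = 0.00432), and of -1.05 (adjusted p = 0.0864) without that tumour.

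Collagen and matrix genes fell. Of 21 collagens 13 fell and none rose (median -1.41), and 7 fell without therapy replicate 1. The collagen mean was 11.73, 12.81, 12.25 and 11.87 in therapy tumours, against 13.55, 13.73, 13.66 and 13.34 in untreated tumours. Col18a1, a basement membrane collagen, had 9443, 31098, 17439 and 17769 in therapy tumours, against 66726, 76821, 75908 and 69785 in untreated tumours, a log2 difference of -2.06 ± 0.37 (limma adjusted p = 9.93e-06). Col11a1, a minor fibrillar collagen of activated stroma, had 3.33, 31.0, 2.80 and 7.44 in therapy tumours, against 154, 142, 144 and 162 in untreated tumours, a log2 difference of -4.21 ± 0.71 (limma adjusted p = 2.80e-06). Col4a1 and Col7a1, of basement membrane and its anchoring fibrils, had log2 differences of -1.67 (adjusted p = 0.000187) and -1.70 (adjusted p = 8.52e-05). Col1a1, the main fibrillar collagen, had 21982, 40201, 24318 and 20452 in therapy tumours, against 54728, 60352, 63871 and 45239.8 in untreated tumours, a log2 difference of -1.11 ± 0.64 (limma adjusted p = 0.181). It was not called, although all therapy tumours were below all untreated ones.

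Among other matrix proteins 9 of 22 fell and none rose, and 5 fell without therapy replicate 1. Fn1, fibronectin, had 119846, 192853, 226257 and 133368 in therapy tumours, against 589604, 631206, 523252 and 395340 in untreated tumours, a log2 difference of -1.70 ± 0.46 (limma adjusted p = 0.00289). Sparc, which binds collagen, had 22642, 60719.6, 41451 and 39312 in therapy tumours, against 105816, 123362, 122364 and 108221 in untreated tumours, a log2 difference of -1.57 ± 0.36 (limma adjusted p = 0.000471). Lamb1 and Lamc1, laminin chains, had log2 differences of -1.47 (adjusted p = 7.42e-05) and -1.34 (adjusted p = 3.44e-05). Adamts12, a secreted metalloprotease, had 11.7, 189.8, 113 and 24.2 in therapy tumours, against 1047, 888, 891 and 592 in untreated tumours, a log2 difference of -4.03 ± 0.85 (limma adjusted p = 0.000162). Pdgfrb, a receptor of fibroblasts and pericytes, had 2919, 5807, 3991 and 3706 in therapy tumours, against 13586, 18012, 14541 and 10223 in untreated tumours, a log2 difference of -1.79 ± 0.36 (limma adjusted p = 7.73e-05), while Ly6a and Thy1, surface proteins of fibroblasts that T cells also carry, rose by log2 differences of 3.18 (adjusted p = 0.000384) and 1.79 (adjusted p = 0.000883). Vim, the intermediate filament of mesenchymal cells, had 154380, 195003, 201785 and 187418 in therapy tumours, against 214802, 210825, 203037 and 187730 in untreated tumours, and the arms overlapped, with a log2 difference of -0.15 (adjusted p = 0.763).

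Genes of the contractile cytoskeleton and of YAP and TAZ fell in 10 of 19 cases, of TGF beta in 7 of 15, and of insulin-like growth factor signalling in 8 of 17. Without therapy replicate 1 these falls numbered 3, 4 and 6. Wwtr1, which encodes TAZ, had 5163, 10338, 7686 and 8606 in therapy tumours, against 20299.7, 20121, 19169.6 and 16876 in untreated tumours, a log2 difference of -1.31 ± 0.22 (limma adjusted p = 2.25e-06). Flna, an actin crosslinker, had 29469, 55269, 39369 and 34949 in therapy tumours, against 102246, 101299, 93490.3 and 92600 in untreated tumours, a log2 difference of -1.33 ± 0.22 (limma adjusted p = 2.48e-06). Tgfb3, a TGF beta ligand, had 1019, 2474, 1528 and 1741 in therapy tumours, against 4513, 5359, 4798 and 4722 in untreated tumours, a log2 difference of -1.59 ± 0.39 (limma adjusted p = 0.00104). Irs1, the docking protein of the insulin and IGF1 receptors, had 23.7, 314, 221 and 51.4 in therapy tumours, against 1550.1, 1477, 1264 and 1133 in untreated tumours, a log2 difference of -3.79 ± 0.66 (limma adjusted p = 6.28e-06). Therapy replicates 1 and 4 were lowest, and all 4 were below every untreated tumour. Irs2 followed with a log2 difference of -1.38 (adjusted p = 0.000778). Igf1, the ligand, moved the other way, with 3168, 1294, 1599.9 and 1815 in therapy tumours, against 363, 310.4, 393 and 356 in untreated tumours, a log2 difference of 2.39 ± 0.61 (limma adjusted p = 0.00175).

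The largest falls were taken among called genes whose mean over the 8 tumours was above the median of the genes tested and whose arms did not overlap, and they were in genes of varied roles. Dmp1 (chr5:104202613-104214102), a secreted phosphoprotein of mineralised matrix, had 240.1, 1172, 289.8 and 1125 in therapy tumours, against 11032, 15042, 13858 and 7382 in untreated tumours, a log2 difference of -4.37 ± 0.77 (limma adjusted p = 7.86e-06). The highest therapy tumour was below the lowest untreated one. Amot, a scaffold that binds YAP, had 345, 1809, 823 and 1052 in therapy tumours, against 8346, 8468, 7875 and 7627 in untreated tumours, a log2 difference of -3.23 ± 0.51 (limma adjusted p = 7.57e-07). Itga10, a collagen-binding integrin, had 170.0, 908, 305 and 499 in therapy tumours, against 4026, 4000.4, 4417 and 3845 in untreated tumours, a log2 difference of -3.37 ± 0.61 (limma adjusted p = 1.11e-05). Megf10, an engulfment receptor, and Atp7a, a copper exporter, had log2 differences of -3.82 (adjusted p = 0.000445) and -4.29 (adjusted p = 0.000333). Atp7a was at 5.00 in therapy replicate 1 and 52.99 in replicate 4, with 752 and 664 in the other 2 therapy tumours. Kcnt1, a sodium-activated potassium channel, Mest, an imprinted hydrolase, Scube3, a secreted protein, and Ston1, an endocytic adaptor, had log2 differences of -3.96 (adjusted p = 0.000525), -3.36 (adjusted p = 1.43e-05), -3.18 (adjusted p = 0.000203) and -3.44 (adjusted p = 0.000403). Rbpsuh-rs3, a copy related to Rbpj, Glp1r, Rbfox1 and Palld belong to the same set by size, with log2 differences of -3.78 (adjusted p = 0.00423), -3.51 (adjusted p = 0.00906), -3.51 (adjusted p = 0.0345) and -3.12 (adjusted p = 0.00139). These 4 were not called without therapy replicate 1, at -2.52 (adjusted p = 0.121), -2.82 (adjusted p = 0.0909), -3.19 (adjusted p = 0.125) and -2.16 (adjusted p = 0.0651).

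Markers of neighbouring tissues were followed in the same tumours. Of 13 endothelial and pericyte genes 4 fell, among them Cdh5, the cadherin of endothelial junctions, with 1539, 2686, 1982 and 1549 in therapy tumours, against 4592, 5602, 5562 and 3845 in untreated tumours, a log2 difference of -1.36 ± 0.35 (limma adjusted p = 0.00192), and Cspg4, a pericyte proteoglycan, with a log2 difference of -1.81 (adjusted p = 0.000508). Skeletal muscle genes were uneven, with a list mean of 10.77, 3.30, 3.15 and 3.19 in therapy tumours, against 7.20, 7.53, 8.10 and 4.78 in untreated tumours, and none of 12 was called. None of 10 keratin genes was called, with a median of 0.82, or -0.21 without therapy replicate 1. None of 10 adipocyte, 7 milk protein or 8 red cell genes was called either, with medians of 1.79, 2.33 and 1.80. The summed milk protein signal was 77.3 to 442 in therapy tumours, against 13.2 to 22.5 in untreated tumours, and Wap was at 0 in 7 of the 8 and at 0.930 in 1 therapy tumour. Of 13 epithelial junction genes 1 fell, Jup, which encodes plakoglobin and is also used by endothelium, with 967, 1005, 870.3 and 937 in therapy tumours, against 2672, 4186, 3892 and 3005 in untreated tumours, a log2 difference of -1.84 ± 0.35 (limma adjusted p = 3.04e-05). Their part in the results above was not tested.

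The cultured T11-Apobec line, measured in the same series, gave a further way to sort the genes. Among 2405 genes at 0 in culture 14.5% rose and 2.00% fell with therapy, among 9223 below the median of the rest 12.2% and 11.3%, and among 9220 above it 14.7% and 23.4%. The 50 genes with the largest excess in untreated T11 over untreated KPB25L tumours at 3 days had a median log2 difference of -0.78, with 1 higher and 12 lower. Their mean log2 level was 7.38 to 8.43 in therapy tumours, against 8.83 to 9.09 in untreated tumours. A smaller share of tumour cells and less of these transcripts per tumour cell cannot be told apart.

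Parental T11 tumours of the same day and flow cell gave no called change with the same therapy in limma, with 57 of the 20848 genes at an unadjusted p under 0.05. That is far below the share of 0.05 that no effect at all would give. The test with the pooled spread was therefore strict for T11, and smaller changes there could be missed. The therapy effect in T11-Apobec exceeded that in T11 for 592 genes (2.84%) and was below it for 369 (1.77%), as tested by the difference of the 2 effects in limma. For F10 the effect was -0.01 ± 0.97 in T11, and the difference was 7.20 ± 1.36 (limma adjusted p = 0.000286). T11 tumours had 10.2, 51.6, 13.6 and 52.8 with therapy and 23.1, 64.5, 33.4 and 7.78 without. Nos2, with an effect of -0.64 ± 0.80 in T11, differed by 6.33 ± 1.14 (limma adjusted p = 0.000115). Mmp12 and Clec4d differed by 5.62 ± 1.23 (limma adjusted p = 0.00225) and 5.26 ± 0.98 (limma adjusted p = 0.000223).

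On the falling side, Amot had an effect of 0.20 ± 0.51 in T11 and a difference of -3.43 ± 0.72 (limma adjusted p = 0.00148). T11 tumours had 6957, 7098, 5429.6 and 4922 with therapy and 5002, 3525, 5444 and 7932 without therapy. Mki67, Dmp1 and Irs1 differed by -1.76 ± 0.47 (limma adjusted p = 0.0164), -3.96 ± 1.09 (limma adjusted p = 0.0207) and -3.57 ± 0.94 (limma adjusted p = 0.0142), and without therapy replicate 1 of T11-Apobec none of these 3 passed the threshold (adjusted p = 0.143, 0.109 and 0.127). Mitosis genes gave 9 of the 369 lower differences and lysosomal genes 10 of the 592 higher ones, of 20 and 19 tested. Without therapy replicate 1 of T11-Apobec, 163 genes differed in all. The lane differs between every arm of both lines, so lane and arm cannot be told apart.

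T11-UV, the other derivative classed as sensitive, had its own response at 7 days, with 901 genes higher and 649 lower. Its median log2 differences were 2.92 for the T cell receptor list, 4.87 for killing, 2.10 for interferon gamma and 2.99 for MHC class II. In T11-Apobec these were 2.58, 3.11, 1.54 and 1.87. Myeloid CC chemokines, mitosis and collagen had 1.29, -0.39 and -0.15 in T11-UV, against 2.88, -0.94 and -1.41 in T11-Apobec. The effect in T11-Apobec was above that in T11-UV for 518 genes (2.48%) and below it for 288 (1.38%), or for 462 and 466 after median-ratio rescaling of the libraries. Cx3cr1 had 4143, 12635, 8409 and 16870 in T11-UV therapy tumours, against 10555, 5212, 1128 and 6339 in T11-UV untreated tumours. Its effects were 1.06 ± 0.63 there and -2.88 ± 0.63 in T11-Apobec, a difference of -3.94 ± 0.90 (limma adjusted p = 0.00647). Ciita had 1342, 3346, 872 and 5681 in T11-UV therapy tumours, against 347, 179, 53.6 and 128 in T11-UV untreated tumours, and differed by -4.09 ± 0.96 (limma adjusted p = 0.00778). The untreated T11-Apobec tumours were already between 2152 and 3917 for Ciita. Dmp1 and Kcnj10, an inward-rectifying potassium channel, differed by -3.64 ± 1.09 (limma adjusted p = 0.0380) and -3.52 ± 1.05 (limma adjusted p = 0.0354), and Clec4d by 3.94 ± 0.98 (limma adjusted p = 0.0126).

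The globin genes Hba-a1, Hba-a2 and Hbb-bs also differed from T11-UV, Hba-a1 by 4.67 ± 1.36 (limma adjusted p = 0.0327). T11-UV untreated replicate 3 alone had a Hba-a1 signal of 505380, against 6429.5 or less in the other 3 untreated tumours, and without that library the Hba-a1 difference was 2.93 (adjusted p = 0.216). All 3 globin calls were also lost without T11-Apobec therapy replicate 1, T11-Apobec untreated replicate 1, T11-UV therapy replicate 2 or T11-UV therapy replicate 4. Of the genes named here, Cx3cr1 alone kept its difference from T11-UV whichever single library was left out, and with the spread of these libraries alone its adjusted p was 0.0664. The count ran from 76 without T11-UV therapy replicate 4 to 2615 without T11-UV therapy replicate 3, and the T11-UV arms were on different flow cells.

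**Figure D5:**
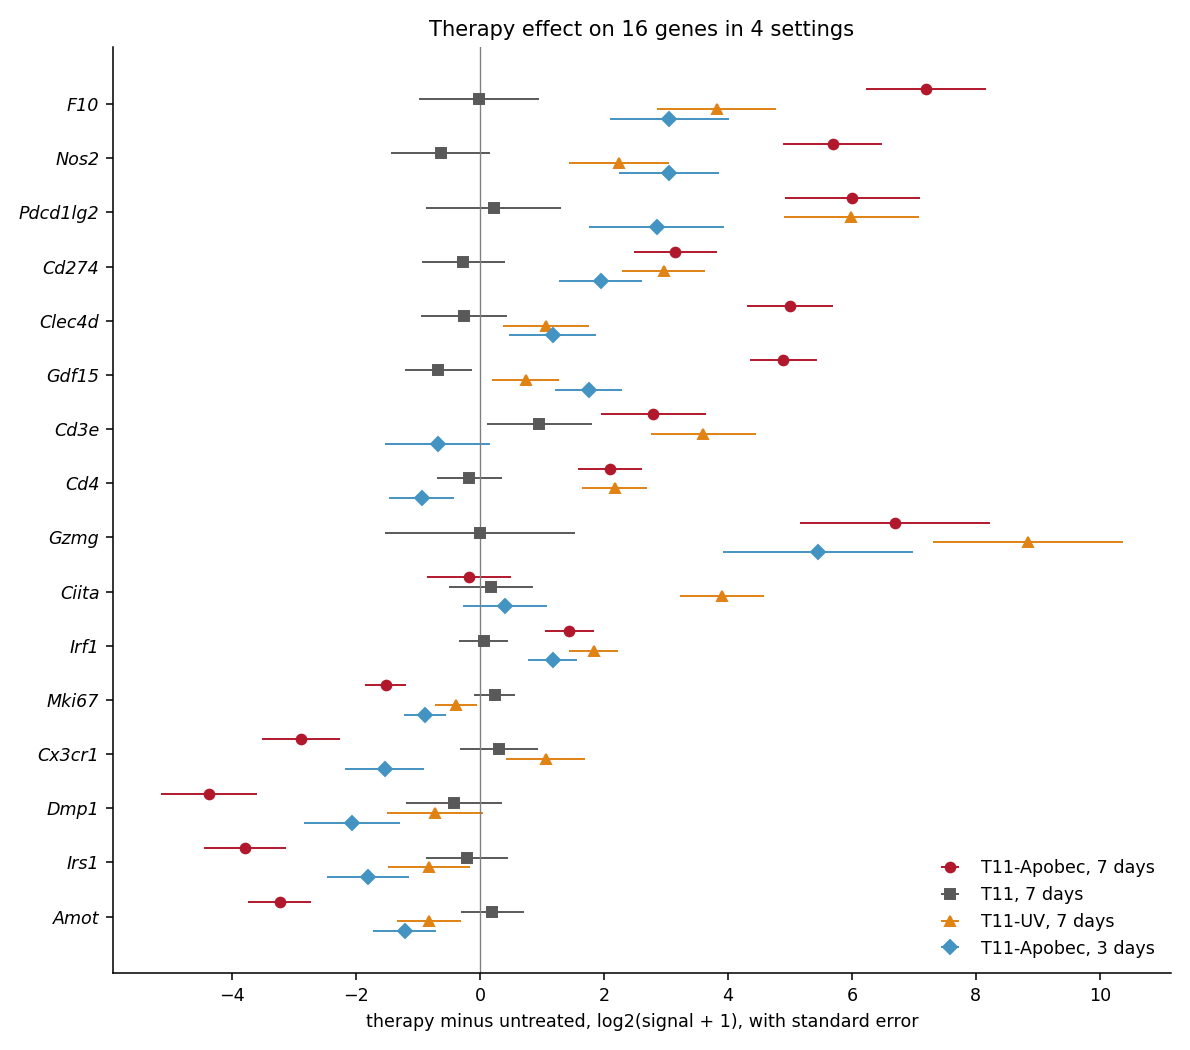
Therapy effect (log2, therapy minus untreated, with standard error) of 16 genes in T11-Apobec at 7 days, T11 at 7 days, T11-UV at 7 days and T11-Apobec at 3 days. F10, for example, is at -0.01 in T11, 3.82 in T11-UV and 3.06 at 3 days, beside 7.19 in T11-Apobec at 7 days.

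T11-Apobec tumours labelled 3 day gave 17 genes higher and 11 lower with therapy. The file headers call the untreated tumours of that set pretreatment, and their source names mark them at 5 mm, so they are not a plain 3 day control. The 7 day effect was above the 3 day effect for 37 genes (0.177%) and below it for 1 (0.0048%). Lat had 297, 586, 448 and 203 with therapy at 3 days, against 316, 283, 556 and 676 without, an effect of -0.27 ± 0.65, and a difference of 3.77 ± 0.91 (limma adjusted p = 0.0442). Cd4 had 458, 600.1, 909 and 286 with therapy at 3 days, against 748, 682, 1418 and 1339 without, and a difference of 3.04 ± 0.74 (limma adjusted p = 0.0450). For both genes the untreated tumours of the 3 day set were above those of the 7 day set. Mgst1, Hvcn1, a proton channel of phagocytes, and Il11ra1, the interleukin 11 receptor, differed by 3.05 ± 0.75 (limma adjusted p = 0.0475), 2.60 ± 0.55 (limma adjusted p = 0.0130) and 2.75 ± 0.63 (limma adjusted p = 0.0323). All 5 of these differences lost the threshold when 1 library was left out. The 3 day set was on a different flow cell from the 7 day set, so day and flow cell cannot be told apart. Its therapy libraries were on lane 5 and its untreated ones on lane 3.

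Nos2 and F10 had positive effects on both days. Nos2 had 13673, 20290, 1936 and 3479.9 with therapy at 3 days, against 825, 1029, 939.6 and 491 without, an effect of 3.05 ± 0.80 (limma adjusted p = 0.0742). F10 had 5984, 4322, 719 and 1473 with therapy, against 954, 227, 158 and 164 without, an effect of 3.06 ± 0.97 (limma adjusted p = 0.161). The difference between the days did not pass the threshold for either, with 2.63 ± 1.14 (limma adjusted p = 0.489) and 4.14 ± 1.36 (limma adjusted p = 0.246).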

How the data were processed

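RNA from tumours was extracted with RNeasy kits, made into TruSeq mRNA libraries and sequenced as 2x50 base pairs, per the labels' protocols. STAR, SAMtools, Picard, Salmon and the mm10 build are named in the submitters' processing notes, without versions. The authors deposited 1 table of gene-level signal, scaled so that every library has the same upper quartile (2048.974, from the values). Depth was estimated from the signal that 1 read is worth. Between 69.2% and 76.4% of values came out whole within 0.01, too few to recover reads, so no count model was used. Of 45724 entries, 39 with date-like names and 28 that repeat 14 symbols were left out, and 1 column that matched no sample was not used.

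The 8 tumours were compared on log2(signal + 1) with limma 3.58.1 in R 4.3.3, with 1 mean for each of 47 groups over 192 libraries (2 libraries of 1 mouse were averaged) and 145 residual degrees of freedom. The 20848 genes tested were above 0 in at least 4 libraries and in the upper 66.7% by mean. Genes were called at a Benjamini-Hochberg adjusted p under 0.05. The fit was checked on simulated data with the same spread per gene in every group, so unequal spreads between groups were not covered. Named genes are the largest rises and falls, up to 14 each, of called genes whose arms do not overlap and whose 8-tumour mean exceeds the median gene's (leaving aside predicted genes and receptor variable segments), up to 4 per list with the smallest adjusted p, a panel of 24, and up to 5 per direction for each difference of effects. Icosl, Nos3, Vcan, Sesn1 and Xiap are named outside this rule, after their values were seen, as falls of lists with few. Some results are not reported here. The 59 lists and the tumours were chosen with earlier results of these data known, so lists are described by counts and medians only. Gene positions and transcript lengths are from GENCODE M21 (GRCm38) and promoters from RefSeq (GRCm38.p6). Replicates are numbered in accession order. Alternatives varied the pseudocount, the filter, the libraries that set the spread, the scaling, library weights, each library in turn and, added after the data were seen, a length and GC trend removed within each library.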

Additional observations from a re-analysis of the deposited data

Results flagged for a closer look

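Within the arms of 4 tumours, single tumours stood apart from the other 3 by more than Dixon's limit in 9 of 224 groups of values checked, where chance alone gives about 1 in 20. In the therapy arm these were replicate 1 for skeletal muscle, with a list mean of 10.77 on the log2 scale against 3.15 to 3.30 in the others, and for macrophage identity, with 12.46 against 12.50 to 12.51. In the untreated arm, replicate 4 was low for Pdgfra (10.91 against 11.81 to 11.89), for matrix proteases (10.94 against 11.46 to 11.55) and for fibroblast genes (10.70 against 11.03 to 11.08), and high for epithelial junction genes (4.65 against 3.62 to 3.76) and luminal genes (5.66 against 4.68 to 4.77). Untreated replicate 2 was high for Cd4 (8.38 against 8.08 to 8.11), and untreated replicate 3 was low for hypoxia and glycolysis genes (12.69 against 13.03 to 13.08).

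Therapy effects that differed from those in T11 at 7 days, by the test of the difference itself, were those of F10 (7.20), Nos2 (6.33), Pdcd1lg2 (5.78), Mmp12 (5.62), Clec4d (5.26) and Cd274 (3.42), which were higher in T11-Apobec. Mki67 (-1.76), Amot (-3.43), Mest (-3.57), Irs1 (-3.57), Dmp1 (-3.96) and Kcnt1 (-4.40) were lower. Without therapy replicate 1 of T11-Apobec the threshold was missed by Pdcd1lg2 (adjusted p = 0.0665), Cd274 (0.0791), Mki67 (0.143), Mest (0.0644), Irs1 (0.127), Dmp1 (0.109) and Kcnt1 (0.18). Kcnt1 also missed it without any of 5 other single libraries, Cd274 without either of 2 and Mki67 without 1. Against T11-UV the higher effects were those of the globins Hba-a1 (4.67), Hbb-bs (4.64) and Hba-a2 (4.48), Clec4d (3.94) and Wfdc17 (3.07), a secreted protein of macrophages, and the lower ones were those of Pdgfra (-2.49), Kcnj10 (-3.52), Dmp1 (-3.64), Tlr9 (-3.92), Cx3cr1 (-3.94) and Ciita (-4.09). Each of these except Cx3cr1 missed the threshold without at least 1 single library. Against 3 days, Lat (3.77), Mgst1 (3.05), Cd4 (3.04), Il11ra1 (2.75) and Hvcn1 (2.60) had higher effects at 7 days, and all 5 missed the threshold without therapy replicate 1 of the 7 day set. All values are differences of log2 effects.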

How the results depend on the processing

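No paired analysis was possible because each library comes from its own mouse and the replicate numbers were given in accession order. Leaving out 1 library at a time gave 2596 to 7082 called genes for therapy against untreated (6075 with all), 163 to 2244 for the difference from T11 (961), 76 to 2615 for the difference from T11-UV (806), 3 to 70 for the difference from 3 days (38) and 186 to 324 called list members (311). The lowest counts came without therapy replicate 1 of T11-Apobec for the first 2 and for list members, without T11-UV therapy replicate 4 for T11-UV, and without 3 day therapy replicate 4 for 3 days. Of the named genes, 38 lost their call without therapy replicate 1 and 23 without some other single replicate, and none gained one. With library weights, whose estimate did not converge, 10620 genes were called, 8369 for T11, 9434 for T11-UV, 2371 for 3 days and 468 list members. With the spread of each contrast's own libraries these were 6349, 317 and 680 for T11, T11-UV and 3 days and 482 list members, and with that of the T11-derived groups 3348, 3163 and 406. For therapy against untreated, the spread of the 8 tumours alone gave 7 named genes a call and took it from 1. Cxcl9, Cd8a and Prf1 were among those gaining it (limma adjusted p = 0.000599, 0.000971 and 0.0099). Cd8a and Prf1 were also called at pseudocounts of 8 and 32, with the spread of the T11-derived groups and with library weights. Neither was called with the length and GC trend removed (limma adjusted p = 0.0661 and 0.104). The 3 day difference also gave 78 and 112 genes at pseudocounts of 8 and 32, 80 without a filter and 18 after median-ratio rescaling. That rescaling gave 3232 higher and 3059 lower for therapy against untreated, and 462 higher and 466 lower for T11-UV, against 518 and 288. With the length and GC trend removed, 4606 genes were called, 790 for T11, 555 for T11-UV, 28 for 3 days and 262 list members, and 24 named genes lost their call, among them Pdgfra, Zeb1, Skil, Polr1a, Insr, Tcf4 and the mast cell genes Cma1 and Tpsab1. Ciita changed sign, at 0.00651 with library weights and 0.12 with the trend removed, and ran from -0.44 to 0.20 as single libraries were left out. Ly6g, with at most a few reads in any tumour, was at -0.00994 with the trend removed and ran from -0.15 to 0.69, and it was -0.03 without untreated replicate 4. The cause was not tested for these changes. Depth limits genes of a few reads, such as Chil3, whose difference of 8.18 became 6.21 and 4.54 at pseudocounts of 8 and 32.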

Other observations

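Metabolic genes gave a mixed picture. Of 16 hypoxia and glycolysis genes 4 rose and none fell (median log2 difference 0.67), and 2 rose without therapy replicate 1. The rises included Hk2, which traps glucose in the cell, with 11572, 7706, 16068 and 8625 in therapy tumours, against 4604, 3621, 2775 and 3910.2 in untreated tumours, a log2 difference of 1.52 ± 0.42 (limma adjusted p = 0.00357). Every therapy tumour was above every untreated one. Pfkfb3, which sets the pace of glycolysis, had 5490.1, 5256, 9502 and 3874 in therapy tumours, against 2880.0, 2369, 1814 and 2377 in untreated tumours, a log2 difference of 1.29 ± 0.42 (limma adjusted p = 0.0126), and it lost its call without therapy replicate 3. Of 15 cholesterol synthesis genes 3 fell (median -0.59), and none did without therapy replicate 1. Srebf2, the factor that drives the pathway, had 4768, 7665, 7191 and 8272 in therapy tumours, against 12018, 11306, 9772 and 12652 in untreated tumours, a log2 difference of -0.74 ± 0.21 (limma adjusted p = 0.00422), and -0.56 (adjusted p = 0.0745) without that tumour. Ribosome biogenesis genes gave 1 rise and 2 falls of 15 (median -0.22), and no rise and 1 fall without therapy replicate 1. Polr1a, the large subunit of RNA polymerase I, had 2491, 4763, 3825 and 3508 in therapy tumours, against 7313, 6393, 6153 and 6493 in untreated tumours, a log2 difference of -0.89 ± 0.23 (limma adjusted p = 0.00183), and -0.27 (adjusted p = 0.344) with the length and GC trend removed.

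Of 9 genes of the Apobec family and of uracil repair 1 fell, the uracil glycosylase Smug1, with 460.1, 1332, 1002 and 907 in therapy tumours, against 1406, 1521, 1403 and 1467 in untreated tumours, a log2 difference of -0.74 ± 0.29 (limma adjusted p = 0.0408), and -0.44 (adjusted p = 0.357) without therapy replicate 1. Of 11 immediate early genes 3 rose and 1 fell. Junb, a subunit of the AP-1 factor, had 16537, 6928, 10046 and 12831 in therapy tumours, against 4179.8, 4900.1, 4663 and 4812 in untreated tumours, a log2 difference of 1.25 ± 0.33 (limma adjusted p = 0.00230). Egr3, a factor induced by receptor signalling, had 0, 203, 104 and 56.7 in therapy tumours, against 454, 620.0, 515 and 490.0 in untreated tumours, a log2 difference of -3.95 ± 1.05 (limma adjusted p = 0.00246). It was listed at 0 in therapy replicate 1, and its value was -2.27 (adjusted p = 0.151) without that tumour.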
